A study of Ailuropoda melanoleuca with 25 samples.

Results

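Cytokines, chemokines and their receptors were described in 5 tissues of the giant panda through 29 genes of the 25376 genes in the deposited table. The study listed tissue-specific differentially expressed genes (DEGs), which had passed its thresholds in all 4 comparisons of a tissue with the others, and paired 1778 of them with a gene name. A gene was taken when this name began as the names of interleukins, chemokines, tumor necrosis factor (TNF) family members, toll-like receptors or their receptors do. This held for 31 genes, of which CXCL13 and IL21R were left aside. The members were thus chosen by differences in read counts between these same libraries, and the level of a gene in the tissue that listed it is given here as a description, with no test. The 29 genes were 4 chemokine ligands, 5 chemokine receptors, 2 ligands and 6 receptors of the TNF superfamily, 2 interleukins, 6 interleukin receptors, 3 toll-like receptors, and LTBP2. LTBP2 encodes a matrix protein that binds to elastic fibers and entered by the first letters of its name alone.

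Messenger RNA of 5 tissues (spleen, lung, liver, kidney, and heart) was sequenced from the same 5 captive animals, in 25 libraries. Panda 1 was a female of age 27 with ovarian cancer as the labelled cause of death, and panda 2 a female of age 9 whose cause is labelled as ileac pssion. Pandas 3 and 4 (females) and panda 5 (a male) had the age 0.5 and coronavirus infection as the cause. The labels give no unit of age, and in these pandas age, cause, and year of death cannot be told apart. Levels are FPKM, the reads on a gene scaled by its length and by the depth of the library, so levels of different genes can be set side by side.

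Chemokines are small secreted proteins that guide leukocytes along gradients toward cells that make them, and their receptors are carried by the cells that move. Cytokines of the TNF and interleukin families act over short distances between lymphocytes, myeloid cells, and tissue cells, while toll-like receptors recognize molecules of microbes. The spleen is the largest lymphoid organ that filters blood, and it holds follicles of B cells, zones of T cells, and a red pulp rich in macrophages. In bulk tissue, fewer cells of a type and less RNA per cell cannot be told apart.

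Depth was alike in all libraries, at 13149580 to 21383380 reads behind the FPKM scale (median 16215829). Features of 3 single libraries touch the genes below. Liver replicate 3 was least like its tissue, with a median correlation of 0.861 with the other livers across genes, against at least 0.940 for each of the others. Kidney replicate 4 had 1004 FPKM summed over 3 kidney tubule genes, against at least 8016 in the other kidneys, and its median correlation was 0.906. Spleen replicate 4 had 125 FPKM over 4 lung epithelium genes, against at most 7.59 in the other spleens and at least 13728 in the lungs. The sums of marker genes of B cells (557 to 1044 FPKM), plasma cells (6799 to 12156), and T cells (602 to 2627) were higher in every spleen than in any other library, where they reached 114, 1338, and 229, all in lung replicate 3. The marker genes were found by their names in the same lists of the study, so these sums describe the libraries and test nothing.

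The 29 genes stood in 32 places of the lists, since CCL16, CXCL17, and IL13RA2 were listed for 2 tissues each. The spleen had 18 of them, the heart 4, the liver 4, the lung 3, and the kidney 3. In 26 places the listed tissue had the highest mean of the 5, in 4 the lowest, and in 2 a place between. In 17 of the 26, each library of the tissue exceeded all 20 libraries of the other tissues, and in 1 of the 4 (LTBP2 in the liver) each library lay below them all. The share of all genes with such a gap was not counted, so these counts have no background. By another measure, the share of all tested genes called between tissues by limma was 23.3% for the heart and spleen, 29.9% for the liver and spleen, 6.88% for the spleen and lung, and 14.3% for the spleen and kidney. It was 15.7% for the heart and liver, 22.9% for the heart and lung, 15.3% for the heart and kidney, 29.0% for the liver and lung, 14.0% for the liver and kidney, and 12.2% for the lung and kidney. A gene was called when its p, adjusted after Benjamini and Hochberg, lay below 0.05 and its log2 difference passed 2 in size. As the lists used these contrasts, nothing is read from the 26 places. The rank of the listed tissue did not move in any of the 32 places after rescaling by TMM factors, which bring a trimmed mean of the log ratios of all libraries to a common level. Each library is divided by its factor, which was 0.242 for liver replicate 3 and 0.573 to 0.668 for the other livers. The factors were 0.536 to 0.775 for the hearts, 0.835 to 1.52 for the kidneys, and at least 1.48 for every spleen and lung. Levels and overlaps of single libraries are given on the deposited scale unless stated otherwise.

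**Figure D1:**
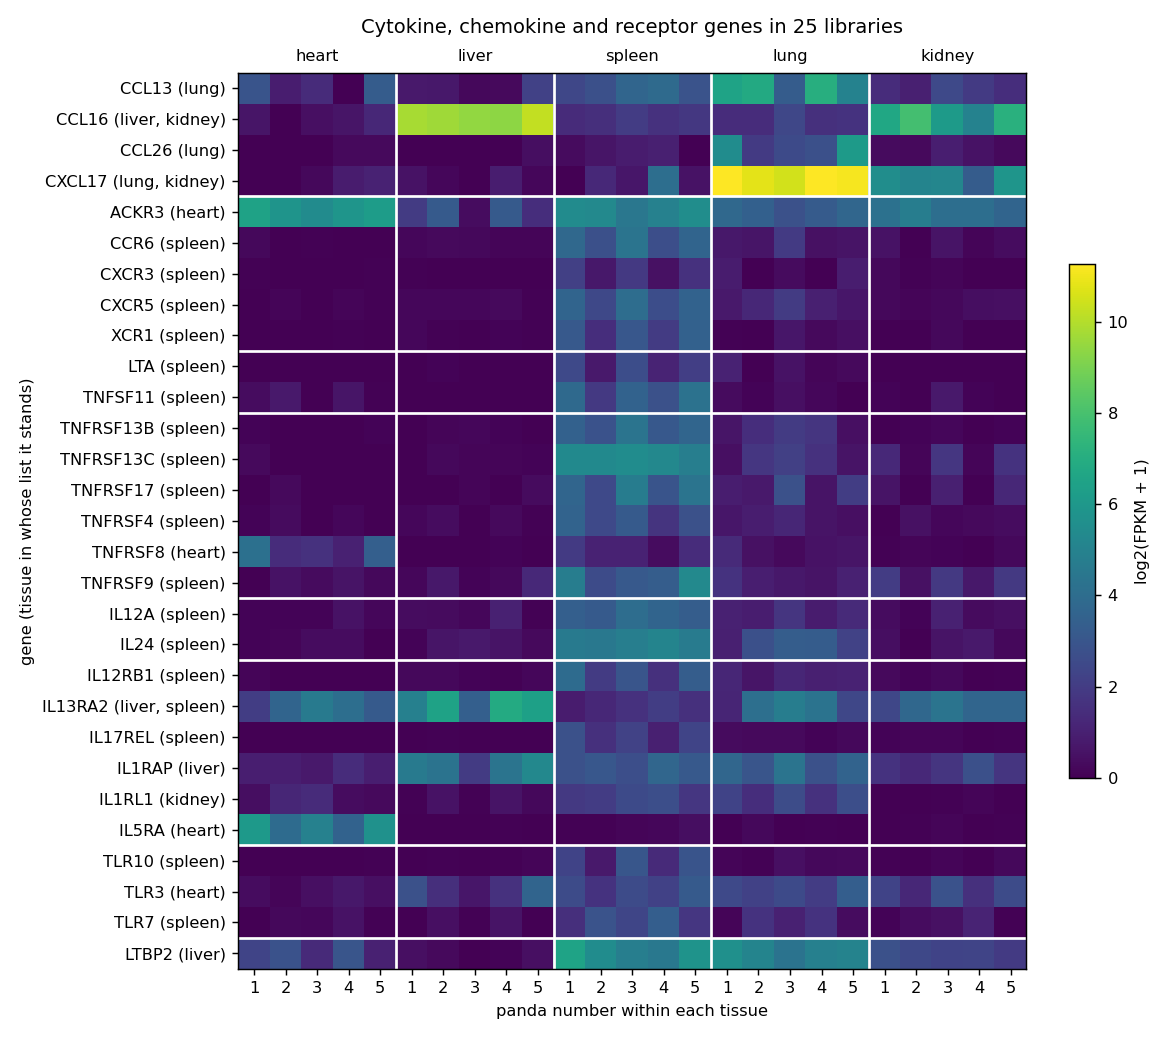
Level of each of the 29 genes (rows, by role, with the listing tissue in brackets) in each of the 25 libraries (columns, by tissue and panda), as log2(FPKM + 1) in color. Most rows are on average brightest in the spleen columns, though many of these are dim on the shared color scale. CCL16 is on average brightest in the liver, then the kidney, and CXCL17 in the lung, then the kidney.

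On log2(FPKM + 1), the smallest difference between the listed tissue and any other was above 2 in 18 of the 32 places. Just inside this bound lay IL13RA2 in the liver (2.05) and CXCR5 in the spleen (2.13), and just outside it TNFRSF4 (1.98) and the low level of IL13RA2 in the spleen (1.89). The smallest was 0.25, for IL1RL1 in the kidney, where the other low tissues were near 0 too. The study applied its bound to fold changes of read counts, which this scale understates for low genes. Not all places below 2 were of low genes. For ACKR3 in the heart (mean 63.5 FPKM) the smallest difference was 0.83, and for IL1RAP in the liver (20.3) it was 0.61. After TMM rescaling the means of ACKR3 were 97.7 FPKM in the heart and 22.04 in the spleen. Those of IL1RAP were 34.7 in the liver and 6.49 in the lung. The part of scaling between libraries in these places was not tested.

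The highest level of any of these genes was that of CXCL17, a chemokine of mucosal epithelia. In the lung, pandas 1 to 5 had 2459, 1806, 1428, 2441, and 2236 FPKM (mean 2074 ± 447, SD, n = 5). In the kidney they had 44.7, 32.6, 35.1, 8.81, and 57.6 FPKM. The lung mean was 58.0 times the kidney mean, and no kidney library came near a lung library. The spleen had 0, 1.46, 0.619, 15.6, and 0.483 FPKM, and its highest value was in the same library (spleen replicate 4) that had the lung epithelium genes. The part of that tissue in the value was not tested. In the heart the values were 0, 0, 0.170, 0.836, and 1.11 FPKM, and in the liver 0.451, 0.139, 0, 0.879, and 0.131 FPKM. The kidney value was lowest in replicate 4, which also had the least of the tubule genes, and without it the kidney mean was 42.5 ± 11.3 FPKM (SD, n = 4). The lung epithelium genes summed to between 1.23 and 10.99 FPKM in the kidneys, and their part in the kidney level was not tested.

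CCL16, a chemokine known for its making in the liver, was the ligand with the second highest level. Its FPKM in the livers of pandas 1 to 5 was 884, 809, 702, 653, and 1192. In the kidneys it was 103, 241, 68.7, 30.7, and 143. Liver and kidney libraries did not overlap, and the liver mean (848 ± 213, SD, n = 5) was 7.23 times the kidney mean (117 ± 80.7). The kidney mean was in turn 49.8 times that of the lung, the next tissue (2.36 ± 1.11). Hepatocyte genes, which summed to at least 17002 FPKM in the livers, summed to 526, 169, 306, 333, and 671 FPKM in the kidneys. Their part in the kidney level of CCL16 was not tested.

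CCL13 and CCL26, ligands that attract monocytes and eosinophils, were highest in the lung and uneven among the pandas. CCL13 had 91.0, 112, 8.66, 135, and 31.0 FPKM in lungs 1 to 5. Lung replicate 3 lay below spleen replicates 3 and 4 (11.8 and 13.7 FPKM) and heart replicate 5 (8.83), so the lung overlapped with both tissues. CCL26 had 43.8, 2.76, 4.74, 5.71, and 70.2 FPKM in the same lungs. All 5 exceeded the highest other library (0.960 FPKM), but lungs 1 and 5 stood far above the others, and without lung replicate 5 the mean fell from 25.4 to 14.2 FPKM. Lungs 1 and 5 also had the highest sums of lung epithelium genes (47315 and 44422 FPKM, against 13728 to 20476 in the others), whose part in the CCL26 level was not tested. CCL13, in contrast, was highest in lungs 4 and 2.

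**Figure D2:**
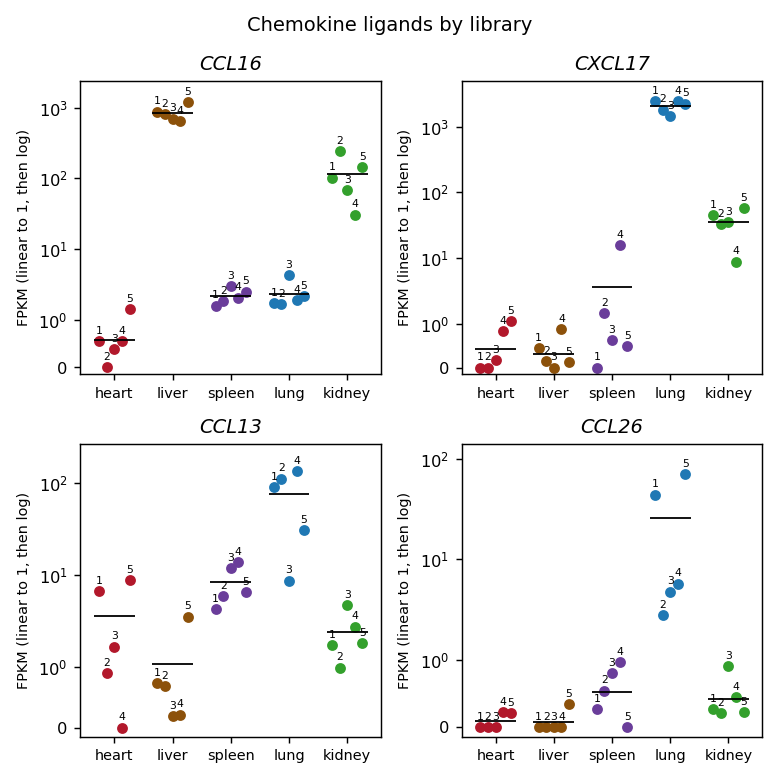
FPKM of the 4 chemokine ligands in each library (points numbered by panda, black lines for the mean of the 5 libraries, axis linear to 1 FPKM and logarithmic above). CCL16 lies in 3 separate levels, with the kidney between, CXCL17 does so but for spleen replicate 4 (15.6 FPKM), which lies above kidney replicate 4 (8.81), and CCL13 and CCL26 vary more than 10-fold among the lungs.

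Of the chemokine receptors, ACKR3, an atypical receptor that takes up CXCL12 without the usual signaling, was listed for the heart and was the most widely expressed. In pandas 1 to 5 it had 88.1, 56.4, 42.3, 57.4, and 73.3 FPKM in the heart. The spleen had 42.2, 39.0, 21.2, 29.98, and 44.9 FPKM, and of these only replicate 5 exceeded a heart library (replicate 3). The kidney had 17.2, 26.0, 16.0, 15.8, and 11.3 FPKM. The lung had 13.0, 9.99, 6.01, 8.30, and 12.3 FPKM, and the liver 2.91, 8.09, 0.296, 8.19, and 1.80 FPKM. Thus its order on the deposited scale was heart, spleen, kidney, lung, and liver, and the heart mean was 1.79 times the spleen mean. After TMM rescaling the liver mean (7.07) came above that of the lung (6.04), with the other places as before.

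The other 4 chemokine receptors belong to lymphocytes and dendritic cells and were highest in the spleen. CXCR5, which leads B cells into follicles, had 11.4, 4.43, 15.1, 5.30, and 10.6 FPKM in spleens 1 to 5. CCR6, the receptor of CCL20 on B cells and some T cells, had 13.2, 5.80, 19.0, 5.53, and 11.4 FPKM. Both were lowest in spleens 2 and 4 and highest in spleen 3. CXCR3, a receptor of activated T cells, had 3.40, 0.666, 2.64, 0.415, and 2.06 FPKM and overlapped with lungs 1 and 5 (0.829 and 0.850 FPKM). XCR1, which marks dendritic cells that present antigen to cytotoxic T cells, had 7.91, 1.79, 7.32, 2.93, and 10.4 FPKM, all above the 0.584 FPKM of lung replicate 3, the highest library of another tissue. All 4 had the lung as the tissue next to the spleen, at 0.988 ± 0.996 FPKM for CCR6, 1.30 ± 0.909 for CXCR5, 0.388 ± 0.426 for CXCR3, and 0.247 ± 0.239 for XCR1 (SD, n = 5). A ligand of XCR1 was among the listed genes as LOC100482046, described as a cytokine SCM-1 beta, and was chosen for mention after its values were seen. Its FPKM in spleens 1 to 5 was 114, 9.52, 76.0, 29.96, and 212, so it had the same order of pandas as XCR1. TNFSF11 and the T cell marker sums had this order in the spleens too, and the part of these cells was not tested.

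Both ligands of the TNF superfamily were listed for the spleen. TNFSF11, or RANKL, drives the formation of osteoclasts and of lymphoid stroma. It had 13.2, 2.60, 10.7, 5.84, and 18.0 FPKM in spleens 1 to 5. No other library passed 0.731 FPKM, found in kidney replicate 3. The heart had 0.311, 0.692, 0, 0.570, and 0.0599 FPKM, the lung 0.262, 0.0807, 0.386, 0.145, and 0 FPKM, and the kidney 0.0759, 0, 0.731, 0.0654, and 0 FPKM. In the liver no read was counted in any library, which allows a level of up to 0.149 to 0.200 FPKM per library (3 reads, counting error only). LTA, lymphotoxin alpha, needed for the formation of lymph nodes, had 4.63, 0.725, 5.27, 1.18, and 3.27 FPKM in the spleens. Its lowest spleen lay below lung replicate 1 (1.10 FPKM), and no read was counted in any heart or kidney, which allows up to 0.275 to 0.318 FPKM in the hearts and 0.281 to 0.349 FPKM in the kidneys. Hence TNFSF11 was the ligand that stood apart from all other libraries, at 30.9 times the mean of the heart, while LTA did not.

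Among the receptors of the TNF superfamily, the 3 receptors for the B cell survival factors BAFF and APRIL were all highest in the spleen. TNFRSF13C, the BAFF receptor, had 40.0, 40.0, 44.2, 37.4, and 27.5 FPKM in spleens 1 to 5, which was the most even of the 3. Its lungs had 0.371, 2.44, 3.36, 2.06, and 0.508 FPKM, and its kidneys 1.44, 0.116, 2.39, 0.124, and 2.14 FPKM. Hearts 1 to 5 had 0.236, 0, 0, 0, and 0 FPKM, and livers 0, 0.199, 0.108, 0.126, and 0.0939 FPKM. Kidney and lung libraries of TNFRSF13C overlapped, in contrast to the B cell marker sums, which were 10.6 to 16.7 FPKM in the kidneys and 33.8 to 114 FPKM in the lungs. TNFRSF13B, or TACI, had 10.4, 6.17, 19.0, 7.55, and 11.8 FPKM in the spleens. TNFRSF17, or BCMA, the receptor of plasma cells, had 11.6, 4.66, 25.5, 6.53, and 19.3 FPKM there and overlapped with lung replicate 3 (5.86 FPKM). Spleen 3 was highest for all 3.

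TNFRSF4 and TNFRSF9, or OX40 and 4-1BB, are receptors that activated T cells put on their surface. TNFRSF4 had 11.04, 4.57, 8.24, 2.20, and 6.01 FPKM in spleens 1 to 5. TNFRSF9 had 26.2, 4.96, 7.86, 8.94, and 38.4 FPKM. The kidney came next for TNFRSF9 (1.87 ± 1.23 FPKM), with a mean above that of the lung (1.04 ± 0.630). TNFRSF8, or CD30, was the exception of the family, since it was listed for the heart. Its hearts had 17.1, 1.69, 2.06, 1.05, and 9.60 FPKM, and the lower 3 overlapped with the spleen (0.299 to 2.72 FPKM). Without heart replicate 1 its heart mean was 3.60 ± 4.02 FPKM (SD, n = 4), against 6.30 ± 6.97 with it.

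The 2 interleukins were both listed for the spleen and were even among the spleens. IL24 is a cytokine of the IL10 family that acts mainly on epithelia. In spleens 1 to 5 it had 23.0, 21.8, 26.9, 33.01, and 24.9 FPKM, and in the lungs 0.988, 5.73, 8.86, 8.56, and 3.65 FPKM. Livers had 0.0859, 0.555, 0.689, 0.503, and 0.225 FPKM, kidneys 0.344, 0, 0.502, 0.691, and 0.190 FPKM, and hearts 0.0940, 0.104, 0.292, 0.287, and 0 FPKM. So IL24 had 3 levels, in that every spleen exceeded every lung and every lung exceeded every library of the other 3 tissues. IL12A, a subunit of the cytokine IL12, had 9.69, 8.13, 15.0, 11.2, and 9.13 FPKM in the spleens and at most 2.37 FPKM elsewhere.

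The 6 interleukin receptors had the most varied places. IL12RB1, a subunit of the receptors of IL12 and IL23, had 14.3, 2.84, 6.87, 1.99, and 9.09 FPKM in spleens 1 to 5. IL17REL, named for its likeness to the IL17 receptors, had 5.99, 1.96, 3.65, 1.01, and 3.90 FPKM, and both were highest in spleen 1 and lowest in spleen 4. IL17REL had no read in any heart, which allows up to 0.172 to 0.198 FPKM.

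IL5RA, the specific subunit of the receptor of IL5, is known as a receptor of eosinophils and was listed for the heart. Hearts 1 to 5 had 65.3, 14.1, 29.7, 10.7, and 50.1 FPKM. Outside the heart no library passed 0.319 FPKM (spleen replicate 5), and the heart mean was 240 times that of the spleen, the tissue next to it. The level rested on at least 226 reads in each heart. Its order among the hearts (pandas 1, 5, 3, 2, and 4) was also that of TNFRSF8. T cell marker genes summed to 6.25, 1.75, 3.17, 12.4, and 4.60 FPKM in the same hearts. The most was in heart 4, which had the least of both genes, while hearts 1, 5, 3, and 2 had the same order as for IL5RA and TNFRSF8. The part of T cells in these levels was not tested. Marker genes of eosinophils had no identifier here, so their part in the IL5RA level was not tested.

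IL13RA2, a decoy receptor that binds IL13, was listed as high in the liver and low in the spleen. In the liver pandas 1 to 5 had 28.7, 89.7, 9.59, 119, and 83.1 FPKM, and in the spleen 0.818, 1.39, 2.06, 3.09, and 1.93 FPKM. The heart had 3.18, 11.4, 22.9, 15.9, and 8.12 FPKM, the lung 1.27, 16.2, 26.4, 18.8, and 4.25 FPKM, and the kidney 4.27, 12.5, 19.1, 11.8, and 11.7 FPKM. Liver replicate 3 overlapped with these 3 tissues on the deposited scale, though not after division by the TMM factors. Without this library the liver mean rose from 65.9 ± 45.3 (SD, n = 5) to 80.04 ± 37.6 FPKM (SD, n = 4). Panda 1 had the lowest library in the heart, spleen, lung, and kidney. Spleen and lung overlapped because lung replicate 1 was as low as the spleens.

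IL1RAP, the accessory protein shared by the receptors of IL1 and IL33, had 23.9, 18.5, 2.84, 19.0, and 37.0 FPKM in livers 1 to 5. On the deposited scale liver replicate 3 lay below every lung and every spleen, but division by the TMM factors put it above them all. The liver mean was 20.3 ± 12.3 FPKM with replicate 3 and 24.6 ± 8.62 without it (n = 4). After TMM rescaling the mean was 34.7 FPKM in the liver, 6.49 in the lung, and 4.89 in the spleen. IL1RL1, or ST2, which binds IL33 together with IL1RAP, was listed for its low level in the kidney, where pandas 1 to 5 had 0, 0, 0.0381, 0.112, and 0 FPKM. Spleen (3.66 ± 1.38) and lung (3.67 ± 1.73) had similar means of IL1RL1. The heart had 0.758 ± 0.673 FPKM and the liver 0.243 ± 0.232, and livers 1 and 3 (0.0326 and 0.0327) lay within the range of the kidneys. The 2 partners therefore differed in the liver, which was the highest tissue for IL1RAP and next to the lowest for IL1RL1.

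**Figure D3:**
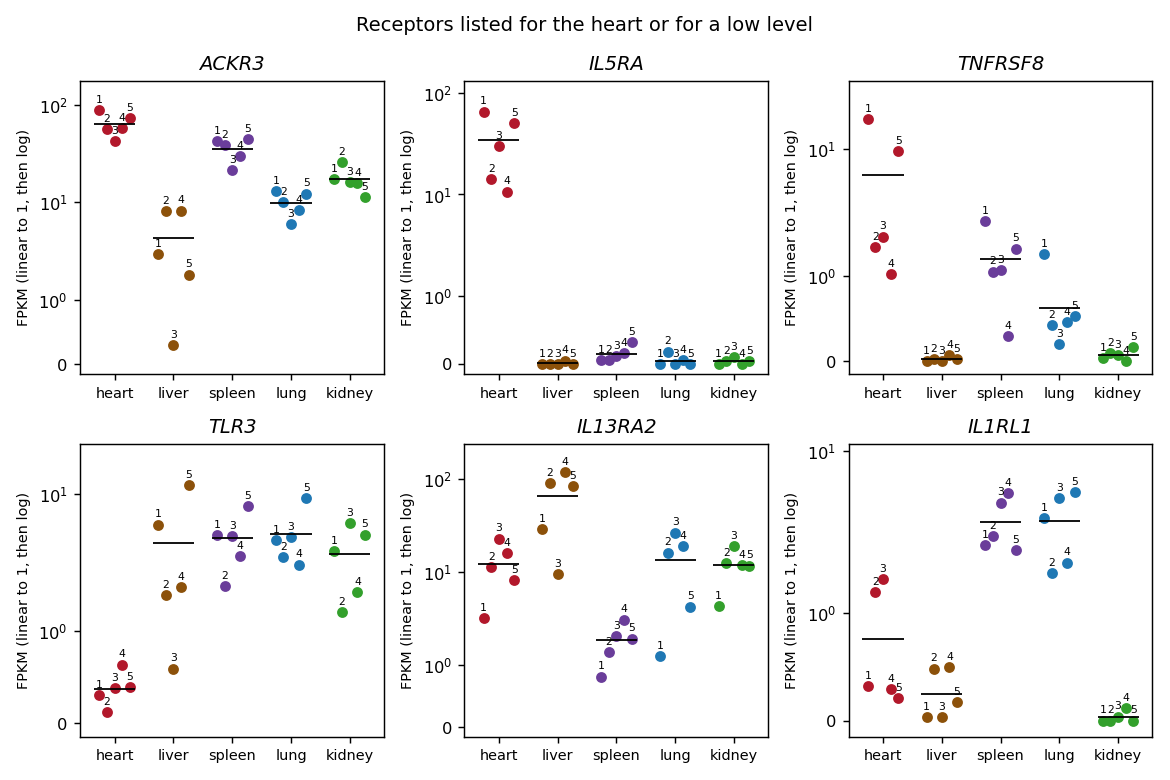
FPKM of 6 receptors in each library (points numbered by panda, black lines for the mean of the 5 libraries, axis linear to 1 FPKM and logarithmic above). IL5RA is near 0 outside the heart, TLR3 is lowest in the heart, IL13RA2 lies lowest in the spleen, and IL1RL1 is near 0 in the kidney.

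Of the toll-like receptors, which sense microbial molecules, TLR7 and TLR10 were highest in the spleen, and TLR3 was listed for its low level in the heart. TLR7, a sensor of single-stranded RNA in endosomes, had 1.87, 6.32, 4.13, 9.20, and 2.41 FPKM in spleens 1 to 5. Lungs had 0.117, 2.15, 1.06, 2.15, and 0.281 FPKM, kidneys 0.0907, 0.311, 0.437, 1.17, and 0.0376, livers 0.0170, 0.377, 0.0512, 0.518, and 0.0148, and hearts 0, 0.165, 0.135, 0.473, and 0.0537 FPKM. In each of the 5 tissues panda 4 had the highest level of TLR7 and pandas 1 and 5 had the lowest levels, although outside the spleen and lung few reads were counted (0 to 60 per library). TLR7 was the only member of which 1 panda was highest in every tissue, out of 26 with reads in every tissue, whereas 6.78% of the 19833 such genes in the table had this property, so the share of the members was not above that of all genes.

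TLR10, found mainly on B cells, had 3.75, 0.704, 7.09, 1.53, and 6.67 FPKM in the spleens and at most 0.389 FPKM elsewhere. TLR3, a sensor of double-stranded RNA, had 0.302, 0.120, 0.379, 0.637, and 0.395 FPKM in hearts 1 to 5. The other tissues had similar means of TLR3, at 5.04 ± 2.48 FPKM in the lung, 4.73 ± 2.23 in the spleen, 4.39 ± 4.45 in the liver, and 3.64 ± 1.99 in the kidney (SD, n = 5). Only liver replicate 3 (0.594 FPKM) fell within the range of the hearts, and after division by the TMM factors it did not.

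LTBP2, the gene that entered by its letters, had 0.390, 0.216, 0.0196, 0.0914, and 0.357 FPKM in livers 1 to 5. Each of the 20 other libraries had at least 1.02 FPKM, and the spleen (47.8 ± 27.9) and lung (32.4 ± 11.2) had the highest means.

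The genes of the spleen spread widely among its 5 libraries. Over the 17 genes that were highest in the spleen, the highest spleen library was a median of 5.46 times the lowest, from 1.51 times for IL24 to 10.1 times for TLR10. Over all 15346 genes whose spleen mean passed 1 FPKM the median was 2.05 times, and 14 of the 17 lay above it. The 17 had spleen means of only 1.84 to 37.8 FPKM, with as few as 6 reads in a library (LTA), and few reads widen this ratio. They were not compared with genes of like level. The lowest library was spleen 2 in 10 of the 17, spleen 4 in 5, spleen 1 for TLR7, and spleen 5 for TNFRSF13C. The highest was spleen 3 in 8, spleen 1 in 4, spleen 5 in 3, and spleen 4 for IL24 and TLR7. Of all spleen genes, 26.3%, 14.8%, 22.6%, 16.0%, and 20.4% were highest in spleens 1 to 5. Spleens 2 and 4 were also lowest most often among all spleen genes, at 33.7% and 22.9% of them. T cell marker genes summed to 2440, 602, 1149, 670, and 2627 FPKM in spleens 1 to 5, and B cell genes to 768, 619, 1044, 557, and 666 FPKM, so the least of both was also found in spleens 2 and 4. The part of the cell makeup in the levels of the 17 genes was not tested. TLR7 had its highest levels in spleens 4 and 2.

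**Figure D4:**
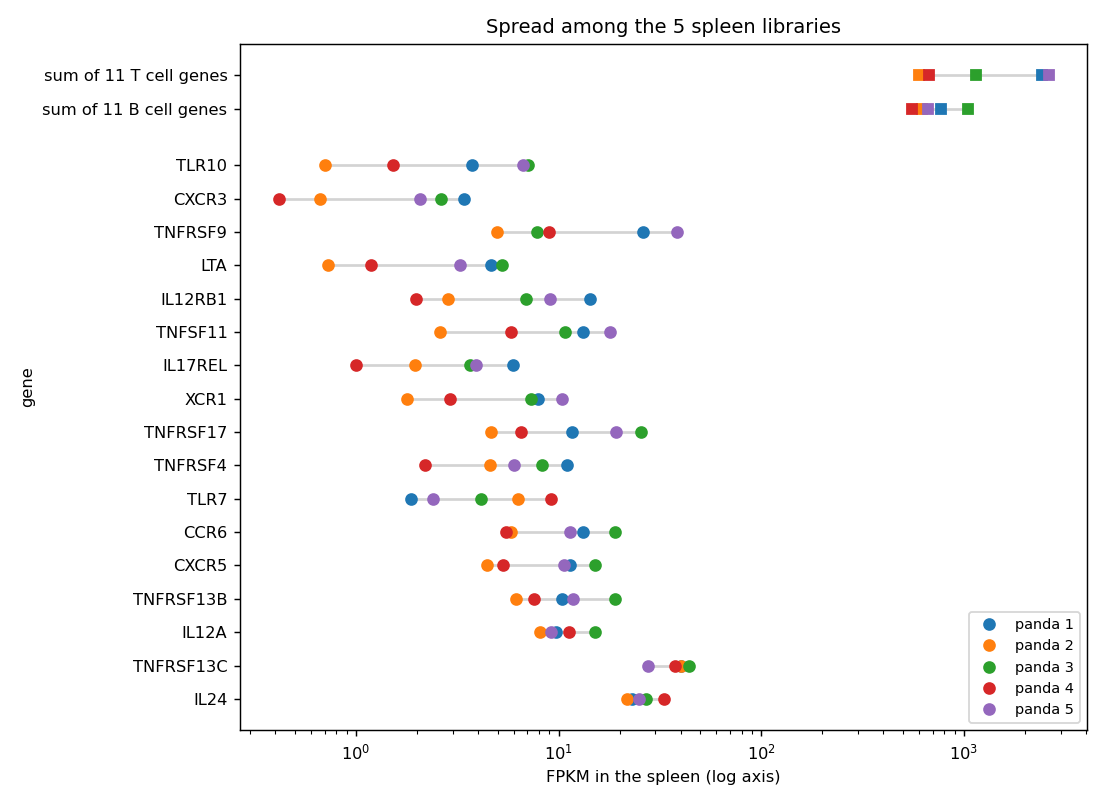
FPKM of the 17 genes that were highest in the spleen, in each of the 5 spleen libraries (points colored by panda, log axis), sorted by the ratio of the highest to the lowest library, with the sums of B cell and T cell marker genes at the top. Panda 2 or panda 4 is lowest in 15 of the 17 genes, the others being TLR7 and TNFRSF13C.

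Tissues that did not list a gene were compared with a test, since the lists did not use the difference between those tissues. The lists did use the level of each of them against the listing tissue, so the tests are not free of the selection. The tests asked where the genes were expressed outside the tissue that brought them into the set. Of 165 combinations of a gene and a pair of tissues, 77 passed the filter (a tissue mean above 1 FPKM on either side) and were tested among all genes with limma on log2(FPKM + 1). Where only 1 of the tissues had a mean above 1 FPKM, the filter itself largely set the direction of the difference. In 12 of the 77 the gene was called. The calls concerned IL24, IL1RAP, LTBP2, ACKR3, and CCL13. The number called was 2 of 6 for the heart and spleen, 3 of 14 for the heart and lung, 2 of 6 for the liver and spleen, 1 of 12 for the liver and lung, 1 of 5 for the liver and kidney, 1 of 6 for the spleen and kidney, and 2 of 14 for the lung and kidney. It was 0 of 1 for the heart and liver, 0 of 6 for the heart and kidney, and 0 of 7 for the spleen and lung. With so few genes per pair, these counts lie around the shares of all genes given above. The median difference of all tested genes was -1.17 (log2) for the heart minus the lung and -1.28 for the liver minus the lung, and rescaling by TMM factors took it to -0.11 and -0.04. The value after TMM rescaling is therefore given for the differences below where the gene still passed the filter.

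IL24 was called higher in the lung than in the 3 tissues other than the spleen. In each of these pairs it passed the filter through the lung mean alone, so the direction was largely set beforehand. The lung exceeded the heart by 2.30 on the log2 scale (SE 0.38, limma adjusted p = 0.000119), the liver by 2.02 (SE 0.40, adjusted p = 0.000641), and the kidney by 2.10 (SE 0.40, adjusted p = 0.00102), in 5 of 5 pandas each. After TMM rescaling the differences were 1.66, 1.08, and 1.60, with adjusted p of 0.00138, 0.0493, and 0.00356, and none was beyond 2. The difference from the liver also came below 2 without any of 5 single libraries (liver replicates 1 and 5, lung replicates 2, 3, and 4), down to 1.83, and that from the kidney without lung replicate 3, lung replicate 4, or kidney replicate 2, down to 1.90.

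Besides IL24, the other 8 tested genes that the spleen listed were not called between the lung and another tissue. This depended on the pseudocount, which holds down the differences of low genes. With a pseudocount of 0.1 instead of 1, 6 of the 8 were called higher in the lung than in the heart, 5 than in the liver, and 2 than in the kidney, where 40.4%, 50.9%, and 21.7% of all tested genes were called in either direction. With limma-voom on recovered reads these were 8, 7, and 3 of 8, against 42.0%, 52.7%, and 22.2% of all genes. With quantile normalization none of the 8 was called. With TMM factors only TNFRSF13C and TNFRSF17, and TNFRSF9 between the lung and kidney, still passed the filter. None of these was called, and the others could not be. The excess of the lung over the heart was 1.05 for CXCR5 with a pseudocount of 1, 3.06 with a pseudocount of 0.1, and 4.16 with limma-voom, and for IL12RB1 it was 0.98, 3.13, and 4.97. Over the 17 genes the lung mean was above the heart mean in 16, above the liver mean in 17, and above the kidney mean in 16. The share of all genes with a higher lung mean was not counted. The median difference of all tested genes also lay toward the lung, at 0.43 (log2) for the lung minus the kidney. After TMM rescaling TNFRSF9 had a higher mean in the liver (0.903 FPKM) than in the lung (0.631). Of the 9 tested, 9 had an adjusted p below 0.05 between the heart and lung, 8 between the liver and lung, and 5 between the lung and kidney. The same held for 80.9%, 74.2%, and 46.5% of all tested genes, so these counts were not far from what all genes gave on the deposited scale. Against the heart and liver, all 9 passed the filter through their lung mean alone, with either pseudocount and with limma-voom. Against the kidney this held for all but TNFRSF13C and TNFRSF9. A higher lung was thus largely set by the filter, and nothing is read from these counts. TNFRSF13B exceeded the kidney in the lung by 1.17 (SE 0.29, adjusted p = 0.00538) and CXCR5 by 0.83 (SE 0.25, adjusted p = 0.0155), both in 5 of 5 pandas with no overlap between libraries, but after TMM rescaling neither passed the filter. TNFRSF13C had no such gap (0.31, SE 0.42, adjusted p = 0.563, and 0.11 after rescaling), and TNFRSF9 was lower in the lung than in the kidney in 4 of 5 pandas by 0.41 (SE 0.34, adjusted p = 0.335, and 0.55 after rescaling). Lung replicate 3, with the most B and T cell marker reads of the lungs, was also the highest lung for 11 of the 17 genes (CCR6, CXCR5, XCR1, TNFSF11, TNFRSF13B, TNFRSF13C, TNFRSF17, TNFRSF4, IL12A, IL24, and TLR10), and it was the highest for 29.7% of all 15858 genes of the lung. Of the other 6, LTA, TNFRSF9, IL12RB1, and IL17REL were highest in lung replicate 1, TLR7 in lung replicate 4, and CXCR3 in lung replicate 5. The part of these cells in the lung levels was not tested.

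**Figure D5:**
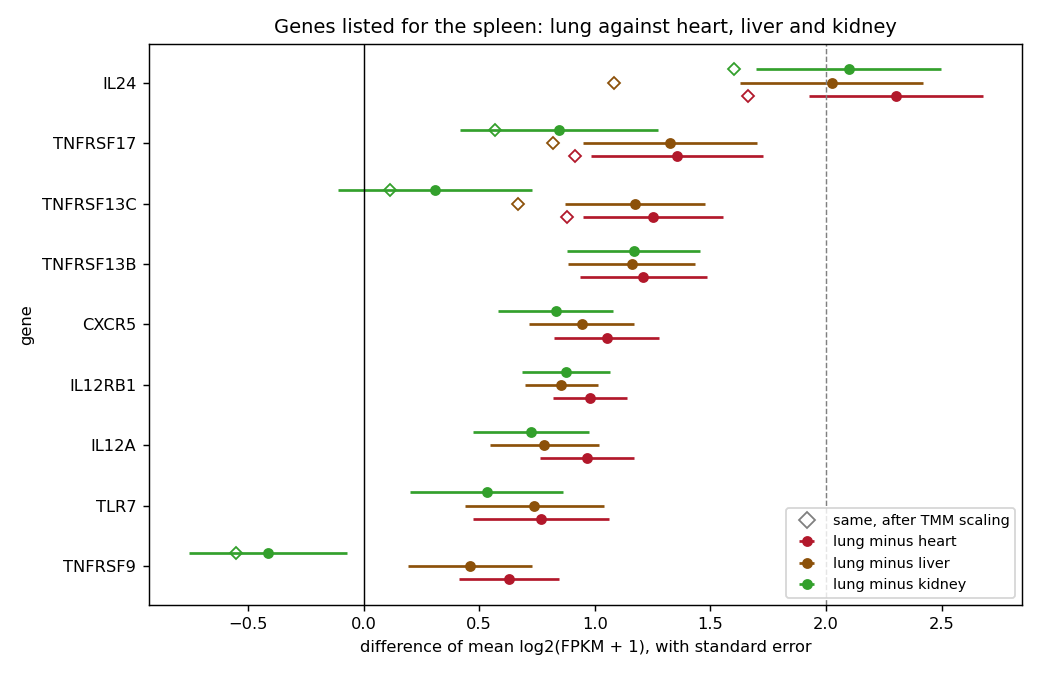
Difference between the lung and the heart, liver, or kidney in mean log2(FPKM + 1) for the 9 tested genes that the spleen listed (filled points, bars for the standard error of the limma fit), with the value after TMM rescaling where the gene then still had a mean above 1 FPKM in either tissue (open diamonds). IL24 alone passes a difference of 2 (dashed line), and its diamonds lie between 1.08 and 1.66.

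IL1RAP was lower in the heart than in the spleen by 2.06 (SE 0.22, adjusted p = 4.30e-06) and than in the lung by 2.46 (SE 0.29, adjusted p = 7.56e-06). After TMM rescaling these were 1.13 and 1.47, with adjusted p of 0.00182 and 0.000454. Without spleen replicate 4, where IL1RAP was highest of the spleens, the difference from the spleen was 1.90. IL1RL1, its partner in the IL33 receptor, was also lower in the heart than in the spleen (by 1.44, SE 0.28, adjusted p = 0.000427) and in the lung (by 1.40, SE 0.32, adjusted p = 0.00137), though by less than 2. After TMM rescaling these were 0.67 and 0.60, with adjusted p of 0.102 and 0.149. With a pseudocount of 0.1 they were 2.44 and 2.37 and with limma-voom 2.67 and 2.62, and were called in both. In the liver IL1RL1 was lower than in the spleen by 1.88 (SE 0.23, adjusted p = 2.46e-05) and than in the lung by 1.84 (SE 0.28, adjusted p = 0.000104), and by 1.21 and 1.15 after rescaling. These pairs were called with a pseudocount of 0.1 and with limma-voom too. The heart and liver means of IL1RL1 lay below 1 FPKM, so its pairs here passed the filter through the spleen or lung alone.

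ACKR3 was called between the liver and the spleen, where the liver was lower by 3.10 (SE 0.51, adjusted p = 0.000185), and between the liver and kidney, where it was lower by 2.10 (SE 0.52, adjusted p = 0.00633). After TMM rescaling the values were 1.82 (adjusted p = 0.00917) and 1.30 (adjusted p = 0.0875). The difference from the kidney came to 1.68 without liver replicate 3, which had the lowest ACKR3 level of all libraries, to 1.96 without liver replicate 5, and to 1.95 without kidney replicate 2. Spleen exceeded lung by 1.74 (SE 0.26, adjusted p = 0.000299, and 1.71 after rescaling) in 5 of 5 pandas with no overlap.

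CCL13 was higher in the spleen than in the liver by 2.28 (SE 0.41, adjusted p = 0.000355), and by 1.30 after TMM rescaling (adjusted p = 0.0290). Each spleen exceeded each liver. Between the spleen and kidney it differed by 1.46 (SE 0.37, adjusted p = 0.00538), in 5 of 5 pandas, and by 1.02 after rescaling.

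LTBP2 was the gene whose differences outlasted the rescaling best. The spleen exceeded the heart by 3.34 (SE 0.45, adjusted p = 2.61e-05) and the kidney by 3.08 (SE 0.36, adjusted p = 1.92e-05), and the lung exceeded the kidney by 2.65 (SE 0.29, adjusted p = 1.63e-05). After TMM rescaling these were 2.18, 2.57, and 2.11, all still called. The lung exceeded the heart by 2.90 (SE 0.39, adjusted p = 2.69e-05), and by 1.72 after rescaling. Spleen and lung did not differ at the threshold (0.43, SE 0.37, adjusted p = 0.422, and 0.46 after rescaling).

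TLR3, which the heart listed as low, was tested among the other 4 tissues, and in these 6 pairs no difference in either direction exceeded 0.47 (log2), with adjusted p between 0.370 and 0.944. After TMM rescaling the liver exceeded the spleen, lung, and kidney by 0.82, 0.78, and 0.80, with adjusted p of at least 0.163. IL13RA2 in the 3 tissues that did not list it differed by 0.16 between the heart and lung (SE 0.66), by 0.06 between the heart and kidney (SE 0.46), and by 0.21 between the lung and kidney (SE 0.62), with adjusted p of at least 0.793. After TMM rescaling the heart exceeded the lung by 1.33 and the kidney by 0.70 (adjusted p 0.106 and 0.307), and the kidney exceeded the lung by 0.63. These standard errors leave room for differences of more than 1 on the log2 scale.

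The 3 young pandas with coronavirus infection were also compared with the 2 older pandas in each tissue, a contrast that the lists had not used. No gene was called at an adjusted p below 0.05 with limma in any tissue, nor in the mean of the 5 tissues of each panda. The background was therefore 0% in the heart, liver, spleen, lung, kidney, and mean, of 12657, 12355, 15346, 15858, 15173, and 18701 genes tested. The unadjusted p was below 0.05 for 558, 87, 1628, 180, 456, and 1295 genes. With limma-voom on reads recovered from the FPKM values it was below 0.05 for 615, 51, 1577, 139, 455, and 1269 genes, and 0 genes were called as well. Of the members tested, numbering 7, 6, 27, 19, 10, and 29, the unadjusted p was below 0.05 for CCL13 in the spleen alone.

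CCL13 in the spleen had 4.22 and 5.82 FPKM in the older pandas and 11.8, 13.7, and 6.45 FPKM in the young ones, which did not overlap. Its log2 difference of 0.91 (SE 0.37) had an unadjusted limma p of 0.0483 and an adjusted p of 0.465. In the spleen 19 of the 27 members tested had a higher mean log2 level in the young pandas (median difference 0.32, against 0.03 for all genes), and in the lung 14 of 19 (0.24, against 0.08). In the kidney it was 6 of 10 (0.35, against 0.03), in the liver 1 of 6 (-0.15, against -0.39), in the heart 2 of 7 (-0.32, against -0.02), and in the mean over tissues 20 of 29 (0.12, against -0.01). The share of all genes higher in the young pandas was not counted. The members of a tissue were also measured in the same libraries and are not independent, so no trend is read from these counts. In the spleen IL13RA2 (0.67, SE 0.30, limma adjusted p = 0.511), CCL16 (0.36, SE 0.27, adjusted p = 0.718), and IL24 (0.31, SE 0.22, adjusted p = 0.703) were also higher in the young pandas without overlap. The same held for CCL16 in the lung and for CCL13 and IL1RAP in the kidney. Lower without overlap were LTBP2 in the lung and ACKR3 and LTBP2 in the kidney. The share of all genes with such a gap was not counted, so nothing is read from it. In the heart the adjusted p was at least 0.999 for each of the 7 members tested.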

How the data were processed

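The authors mapped reads with HISAT2 to the ailMel1 assembly, counted them with HTSeq, and deposited FPKM values from read count and gene length, with no scaling between libraries stated. Names came from the study's list of tissue-specific DEGs, which the authors made with DESeq, read here from a text copy of its PDF. The members, the gene and marker lists, and the tests were chosen with earlier results of these data known. All members are in the heat map, the value in every library was printed for the listing tissue and for the member of each role with the highest such mean, and every called member was named. Names of further family and partner genes could be paired for 2 of 163 genes, so these are not analysed here, and no sequences or genome positions are given. Marker lists with an identifier for at least 80% of their genes were used.

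Tissue pairs were fitted in R 4.3.3 by limma 3.58.1 with a variance trend, on log2(FPKM + 1), over genes with a mean above 1 FPKM in either tissue. The 5 libraries of a tissue came from different pandas. Libraries with the same number are the same panda by the labels, and after removal of tissue means they correlated across genes at a median of 0.367, with 49 of 50 pairs above 0.1. Simulated data served to test the fit, and 194 of 200 genes changed 8-fold were recovered for the lung and kidney and 156 of 200 for 3 against 2 spleens. Whole reads were recovered from the steps of low FPKM values for 24204 of 24207 genes above 0 (tolerance 0.05 reads), and floors were set at 3 reads. A panda library was held to stand apart when the distance to its neighbor, divided by the range of the tissue, passed Dixon's value of 0.71. As alternatives, a pseudocount of 0.1, TMM factors, quantile normalization, no filter, a block for the panda, a single fit of all 25 libraries, limma-voom on recovered reads, and leaving out single libraries or pandas were tried. Other steps used matplotlib 3.10.9, pandas 2.3.3, and numpy 2.4.6 under Python 3.11.15.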

Additional observations from a re-analysis of the deposited data

Results flagged for a closer look

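Among 69 groups of 5 libraries with enough signal, 6 held a library that stood apart from the other 4 of its tissue, where about 5% of groups would do so by chance. CXCL17 had 15.6 FPKM in spleen replicate 4 and at most 1.46 FPKM in the other spleens, and this library also had 125 FPKM of lung epithelium genes. CCL13 had 3.50 FPKM in liver replicate 5, with the next liver at 0.730. CCL16 had 4.30 FPKM in lung replicate 3, with the next lung at 2.17. IL1RAP had 1.70 FPKM in heart replicate 4 (next 0.956) and 5.67 FPKM in kidney replicate 4 (next 2.36), both from panda 4, and that kidney had the least of the tubule genes. TLR3 had 9.27 FPKM in lung replicate 5, with the next lung at 4.82. The causes were not tested.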

How the results depend on the processing

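The 12 calls of members between tissues that did not list them became 3 after quantile normalization, 3 with TMM factors, 37 with a pseudocount of 0.1, and 42 with limma-voom on recovered reads, and they stayed at 12 without a filter, with all libraries in a single fit, and with the panda as a replicate block, which changed no call. With a pseudocount of 0.1 and with limma-voom, the share of all genes called rose too. For the heart and lung it went from 22.9% to 40.4% and 42.0%, and for the liver and lung from 29.0% to 50.9% and 52.7%. For the lung and kidney it went from 12.2% to 21.7% and 22.2%. For the other pairs, and for quantile normalization and TMM factors, this share was not counted. Leaving out each library gave 10 to 12 calls. With TMM factors the 3 calls were those of LTBP2 between the heart and spleen, the spleen and kidney, and the lung and kidney. Of the 77 tested pairs, some did not pass the filter with TMM factors. The direction turned in 12 after quantile normalization, in 6 with TMM factors, and in 1 each with a pseudocount of 0.1 and with limma-voom, none of them a call. These held TLR3 between the liver and the spleen, lung, or kidney, and LTBP2 and IL13RA2 between the heart and kidney, under both quantile normalization and TMM factors. Of the pairs with an adjusted p below 0.05 the direction reversed after quantile normalization for TNFRSF9 between the heart and lung (0.0603, heart minus lung, log2), ACKR3 between the liver and lung (0.0901, liver minus lung), and IL12A between the liver and lung (0.136, liver minus lung). The panda groups gave 0 calls in each setting tried, with 0 to 0 on leaving out each panda, and no block applies there since each tissue has 1 library per panda. Mean levels moved by more than 1 SD with TMM factors in 9 of 32 places, and without a library they moved by more than 1.5 times in 3, namely CCL26 in the lung, TNFRSF8 in the heart, and IL1RL1 in the kidney (0.0301 to 0.00952 FPKM without kidney replicate 4). Differences near 1 FPKM are limited by few reads, and with 3 against 2 pandas 156 of 200 simulated 8-fold changes were recovered in the spleen. Calls of partner and family genes were not made, since no table paired their names.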
